A study of Mus musculus with 4 samples.

Results

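Neurotrophins are secreted growth factors of the nervous system, and 6 genes of this family and its receptors are described here. Bdnf and Ntf3 encode the ligands BDNF and neurotrophin-3. Ntrk2 and Ntrk3 encode the receptor tyrosine kinases TrkB and TrkC, Ngfr encodes the p75 neurotrophin receptor, and Sort1 encodes sortilin, which binds proneurotrophins together with p75. They were taken by symbol from the features of the count matrices, 6 of 20458 genes with counts, and they were picked because Ngfr was lower with TREAT in an earlier look at these data. That lower level of Ngfr is therefore a description here, with no test. In the RefSeq annotation of GRCm38.p6, the assembly behind the mm10 build of the files, Ngfr (ENSMUSG00000000120) lies on chromosome 11 at 95568818 to 95587698 and Bdnf (ENSMUSG00000048482) on chromosome 2 at 109674700 to 109727043. Ntf3 (ENSMUSG00000049107) lies on chromosome 6 at 126101412 to 126166772 and Ntrk2 (ENSMUSG00000055254) on chromosome 13 at 58806472 to 59133970. Ntrk3 (ENSMUSG00000059146) lies on chromosome 7 at 78179986 to 78581034 and Sort1 (ENSMUSG00000068747) on chromosome 3 at 108283974 to 108361519. They were counted with 5598, 3887, 668, 50770, 16263 and 21526 UMIs in the kept tissue spots of all areas, in that order.

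Neurotrophins are made as longer precursors, and the mature ligands act mainly through Trk receptors. TrkB is the main receptor for BDNF and TrkC for neurotrophin-3, and both signal through docking proteins to the MAP kinase, PI3 kinase and phospholipase C pathways. The p75 receptor has no kinase, binds all mature neurotrophins with similar affinity, and with sortilin forms a receptor for the precursors. In the brain, Bdnf is made chiefly by excitatory neurons of hippocampus and cortex, astrocytes carry a TrkB form without the kinase, and p75 in the healthy adult brain is best known from cholinergic neurons of the basal forebrain. In glioma, p75 is known as a receptor linked to invasion.

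Mouse brains that had been inoculated with a tumour and then resected were sectioned, and probes bound to RNA in the fixed, paraffin-embedded sections were counted over a grid of barcoded spots. The series compared brains that received a hydrogel without drug with brains that did not, and the labels TREAT and Vehicle, both at day 11, are taken to mark them. Each group had 2 capture areas, TREAT 1+4 and TREAT 2+3 and Vehicle 1+4 and Vehicle 2+3. The strain, sex and age of the mice, the tumour line and the hydrogel's composition are not given in the sources used here. Each of the 4 areas held 2 separate pieces of tissue, 8 in all, while the series' design states 4 animals and nothing says which piece came from which animal. An area is the replicate throughout, so n is 2 per group, and p-values may measure spread that is technical.

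The areas held 3013 to 3488 tissue spots, of which 3012 to 3485 with at least 500 UMIs were kept, and 51081123 to 56150597 UMIs in tissue in TREAT areas against 34202695 to 45960125 in Vehicle areas. Spots were clustered on their expression with the 6 genes and their pathway left out, and clusters were named from marker genes. Tumour made up 6.6% and 20.3% of kept spots in the TREAT areas, against 30.2% and 38.8% in the Vehicle areas. Proliferation markers summed to 2133 to 2525 UMIs per 1000000 UMIs (CPM) in tumour, against 90.1 to 314.1 CPM in brain outside tumour, and all 15 were detected in tumour of every area. Tumour was mostly a different cluster in each group: 195 and 604 of the 221 and 610 TREAT tumour spots lay in cluster 15, rich in interferon-induced genes such as Gbp2 and Isg15, and 953 and 1339 of the 953 and 1352 Vehicle tumour spots in cluster 0. The median tumour spot had 33429 and 36288.5 UMIs in TREAT areas, against 21334 and 22245 in Vehicle areas. A spot can hold several cells of different types, so fewer cells of a type and less RNA per cell cannot be told apart in any level below.

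Ngfr was the only one of the 6 genes with more signal in tumour than in brain, and its tumour level was lower in TREAT. In tumour it had 42.6 and 20.2 CPM in TREAT 1+4 and 2+3, against 75.02 and 77.03 CPM in Vehicle 1+4 and 2+3. The areas of the groups did not overlap, and the TREAT areas differed from each other more than the Vehicle areas did. The means were 31.4 ± 15.8 CPM in TREAT and 76.0 ± 1.42 CPM in Vehicle (SD, n = 2 each), a ratio of 0.413. Per tumour spot rather than per 1000000 UMIs, the ratio was 0.638, since TREAT tumour spots held more UMIs. After TMM scaling, which takes most genes as unchanged, the log2 difference was −1.74.

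The pieces of tissue spread more widely than the areas. The left and right pieces of TREAT 1+4 had 94.7 and 32.5 CPM of Ngfr in tumour, and those of TREAT 2+3 had 19.1 and 20.6 CPM. The Vehicle pieces had 99.9 and 49.8 CPM in area 1+4 and 82.4 and 67.3 CPM in area 2+3. The groups overlapped at this level: the left piece of TREAT 1+4 was higher than 3 of the 4 Vehicle pieces. That piece held only 28 tumour spots, 25 of them in cluster 0, the cluster of the Vehicle tumours. The other 3 TREAT pieces, with 183 to 427 tumour spots almost all in cluster 15, were below every Vehicle piece.

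**Figure D1:**
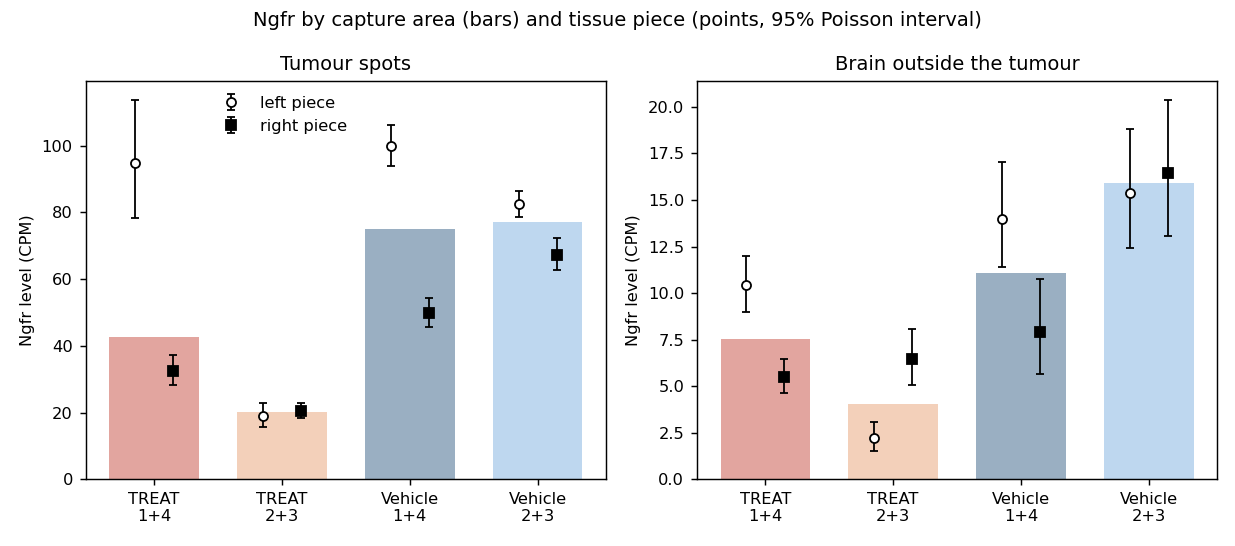
Ngfr in CPM in tumour and in brain outside tumour, with TREAT left of Vehicle. Bars are capture areas, points are their left and right pieces with 95% Poisson intervals that cover counting error only; the left piece of TREAT 1+4 stands at 94.7 CPM in tumour, among the Vehicle pieces, and the other TREAT pieces lie between 19.1 and 32.5 CPM.

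The 2 tumour clusters were also read apart. In cluster 0, Ngfr had 102.4 CPM in the 26 spots of TREAT 1+4 and 4.65 CPM in the 6 spots of TREAT 2+3, where 1 UMI was counted, against 75.02 and 77.04 CPM in Vehicle 1+4 and 2+3. In cluster 15, it had 32.3 and 20.4 CPM in the TREAT areas, against 75.3 CPM in 13 spots of Vehicle 2+3 (95% Poisson interval 44.7 to 119.1). The spots of the smaller cluster in each area are too few to set the groups apart within a cluster, and cluster and group cannot be told apart in most of the tumour.

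Shares of spots with an Ngfr UMI were compared at equal depth. With every spot thinned to 3000 UMIs, 10.9% and 5.57% of TREAT tumour spots held an Ngfr UMI, against 19.2% and 19.7% of Vehicle tumour spots. Their 95% Wilson intervals ran from 4.02% to 15.6% in TREAT and from 16.8% to 21.96% in Vehicle. Thinned to 2000 UMIs, the shares were 12.7% and 2.46% in TREAT and 12.8% and 13.6% in Vehicle. TREAT 1+4 then lay close to the Vehicle areas, but its share rested on 28 of 221 spots (95% Wilson interval 8.91% to 17.7%). That share was higher than at 3000 UMIs although fewer UMIs were drawn, so its closeness to Vehicle cannot be assigned to depth. UMIs were drawn at random once for each depth, and the spread between repeated draws was not tested. The difference of the means was −5.65 points, against −11.3 points at 3000 UMIs. Without thinning the shares were 67.0% and 50.2% in TREAT and 68.0% and 70.5% in Vehicle. In hippocampal spots thinned to 3000 UMIs, where Ngfr is low, the share was 0.283% to 2.12%, which gives the background of such a share.

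Within tumours, Ngfr was spread from the edge to the core. At 1 step inside the edge, where a step is the distance to the next spot, it had 50.5 and 23.0 CPM in TREAT areas, against 112.0 and 91.8 CPM in Vehicle areas. At 5 or more steps inside, it had 34.2 and 20.1 CPM in TREAT, against 65.5 and 70.5 CPM in Vehicle. TREAT was below Vehicle at both depths, and within each area the edge was above the core.

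In whole tissue, Ngfr had 12.6 and 11.0 CPM in TREAT areas, against 49.1 and 58.9 CPM in Vehicle areas, a log2 difference of −2.53. Tumour held 45.6% and 79.1% of all Ngfr UMIs in TREAT tissue, against 90.8% and 91.9% in Vehicle tissue, while it held 13.5% and 43.2% of all UMIs in TREAT and 59.4% and 70.2% in Vehicle. The share of tumour in the section thus moved with the whole-tissue value. In that comparison edgeR's quasi-likelihood test (adjusted p under 0.05, Benjamini-Hochberg) called 6.78% of genes (1.11% higher and 5.67% lower). Since it was used in choosing the genes, their whole-tissue values are given with no test. The other 5 had log2 differences of 0.42 to 0.86, and tumour held at most 40.8% of the UMIs of any of them in any area.

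Other cells that use p75 were looked at through marker lists. Of 10 Schwann cell and neural crest genes, all were detected in tumour of every area, and they summed to 322.4 and 416.2 CPM in TREAT and 454.5 and 396.0 CPM in Vehicle. Sox10, which oligodendrocyte lineage cells also express, made up most of that sum. The 12 genes of pericytes and smooth muscle summed to 116.5 and 149.4 CPM in TREAT tumour, against 73.1 and 103.9 CPM in Vehicle tumour. Their part in the Ngfr level was not tested.

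Tumour and brain outside tumour, which leaves out the 804 spots of the reactive glia cluster, were compared next, within the 4 areas. All 6 genes were called, 1 higher and 5 lower in tumour, in a comparison where edgeR called 64% of genes (30.1% higher and 34% lower). Ngfr averaged 53.7 ± 27.4 CPM in tumour (SD, n = 4) against 4.04 to 15.9 CPM in brain, a log2 difference of 2.29 ± 0.13 (SE, edgeR adjusted p = 1.3e-06), and it was higher in tumour in 4 of 4 areas. The areas of tumour and brain did not overlap.

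Both Trk receptors were close to absent from tumour. Ntrk2 had 16.9 and 12.5 CPM in TREAT tumour and 5.92 and 7.64 CPM in Vehicle tumour, against 503.4 and 474.99 CPM in TREAT brain and 450.7 and 380.3 CPM in Vehicle brain. The log2 difference between tumour and brain was −5.68 ± 0.21 (edgeR adjusted p = 9.3e-08), a 51.3-fold lower level. Ntrk3 had 4.66, 6.17, 5.22 and 4.48 CPM in tumour of TREAT 1+4, TREAT 2+3, Vehicle 1+4 and Vehicle 2+3, against 143.7, 190.2, 179.4 and 123.6 CPM in their brain. Its log2 difference was −5.12 ± 0.13 (edgeR adjusted p = 1.7e-08), 34.7-fold lower.

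The 2 ligands and sortilin were lower in tumour by less. Bdnf fell by 2.67, Ntf3 by 2.32 and Sort1 by 2.64 on the log2 scale, each called by edgeR (adjusted p at most 8.0e-05). Sort1 kept 31.8, 38.5, 32.6 and 30.9 CPM in tumour of TREAT 1+4, TREAT 2+3, Vehicle 1+4 and Vehicle 2+3, and its tumour level varied little between areas. Ntf3 was near its limit of detection in tumour, at 0.60 to 2.56 CPM.

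Ntrk2 was the only one of the other 5 genes called between TREAT and Vehicle tumour, where edgeR called 33.8% of genes (14.2% higher and 19.6% lower). The log2 difference was 0.67 ± 0.24 (edgeR adjusted p = 0.032), and both TREAT areas were above both Vehicle areas. By piece, Ntrk2 had 60.1 CPM in the left piece of TREAT 1+4, with 28 tumour spots, and 8.57 CPM in the right. The left and right pieces of TREAT 2+3 had 20.5 and 9.55 CPM, and the Vehicle pieces 4.45 to 8.05 CPM. The call was lost without TREAT 1+4 (0.46, adjusted p = 0.178), Vehicle 1+4 (0.51, adjusted p = 0.265) or Vehicle 2+3 (0.78, adjusted p = 0.056), and with spots of at least 1000 UMIs the value was −0.17 (adjusted p = 0.654). The level of Ntrk2 within tumours depended on the distance to brain: it had 38.5 and 71.4 CPM at 1 step inside the edge in TREAT, against 21.1 and 40.0 CPM in Vehicle. At 5 or more steps inside it had 1.83 and 3.70 CPM in TREAT, against 3.28 and 2.80 CPM in Vehicle, where the groups overlapped. Edge spots made up 25.8% and 11.8% of TREAT tumour spots, against 10.8% and 8.58% of Vehicle tumour spots, and their part in the difference was not tested.

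The remaining 4 genes did not pass the test in tumour, with edgeR adjusted p-values from 0.132 for Ntf3 to 0.538 for Ntrk3. Bdnf had 6.38 and 5.62 CPM in TREAT tumour, against 7.36 and 5.10 CPM in Vehicle tumour, and the areas overlapped. Sort1 and Ntrk3 differed by −0.26 ± 0.18 and −0.22 ± 0.28 on the log2 scale with TMM, but by 0.16 and 0.20 with library totals, so their direction rested on the scaling. The median over all genes in tumour was 0.090 with TMM and 0.508 with library totals. Ngfr differed by −1.74 with TMM and by −1.32 with library totals, lower in TREAT under both.

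In brain outside tumour, none of the 5 other genes was called between TREAT and Vehicle by edgeR, in a comparison where it called 3.2% of genes (0.307% higher and 2.89% lower) and 4732 had an unadjusted p under 0.05. Ntrk2, Bdnf, Sort1 and Ntrk3 lay within 0.10 of no change on the log2 scale, with standard errors of 0.13 to 0.22. Ntf3 was at 0.44 ± 0.36 (edgeR adjusted p = 0.475). The test of the difference between the TREAT effects in tumour and in brain called none of the 5 (edgeR adjusted p from 0.177 to 0.789), where it called 4.46% of genes (2.14% higher and 2.32% lower) and 4334 had an unadjusted p under 0.05.

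Ngfr in brain outside tumour had 7.52 and 4.04 CPM in TREAT areas, against 11.1 and 15.9 CPM in Vehicle areas. The areas did not overlap, and the means were 5.78 ± 2.46 CPM in TREAT and 13.5 ± 3.44 CPM in Vehicle (SD, n = 2 each). Counted per spot, the ratio of TREAT over Vehicle was 0.984. Much of the Vehicle level came from 1 unnamed cluster at the edge of the tumours, cluster 1, led by the immunoglobulin genes Igha and Igkc and the collagen gene Col3a1.

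Cluster 1 had 57 spots in TREAT 1+4, 1 in TREAT 2+3, 75 in Vehicle 1+4 and 126 in Vehicle 2+3, and 52, 1, 58 and 101 of them lay within 3 steps of tumour. Ngfr had 24.7 CPM there in TREAT 1+4, against 97.8 and 70.0 CPM in Vehicle 1+4 and 2+3, and 1 UMI in the single spot of TREAT 2+3. In all other brain clusters together it had 6.98 and 4.00 CPM in TREAT areas, against 4.18 and 8.77 CPM in Vehicle areas, and there the groups overlapped. Cluster 1 held 10.0% and 0.926% of the brain Ngfr UMIs in TREAT, against 65.0% and 51.4% in Vehicle. With brain limited to the named regions, the log2 difference of Ngfr between TREAT and Vehicle was −0.40, against −1.35 for all brain spots outside the tumour and reactive glia clusters.

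Cluster 1 carried markers of tumour, plasma cells and fibroblasts at once. Proliferation genes summed to 1565 CPM in its spots in TREAT 1+4, against 1797 and 1667 CPM in the Vehicle areas. Plasma cell genes summed to 1774 CPM in TREAT 1+4, against 2743 and 5519 CPM in Vehicle, and genes of meninges and fibroblasts to 4109 CPM, against 3001 and 2710 CPM. Their part in the Ngfr level was not tested.

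**Figure D2:**
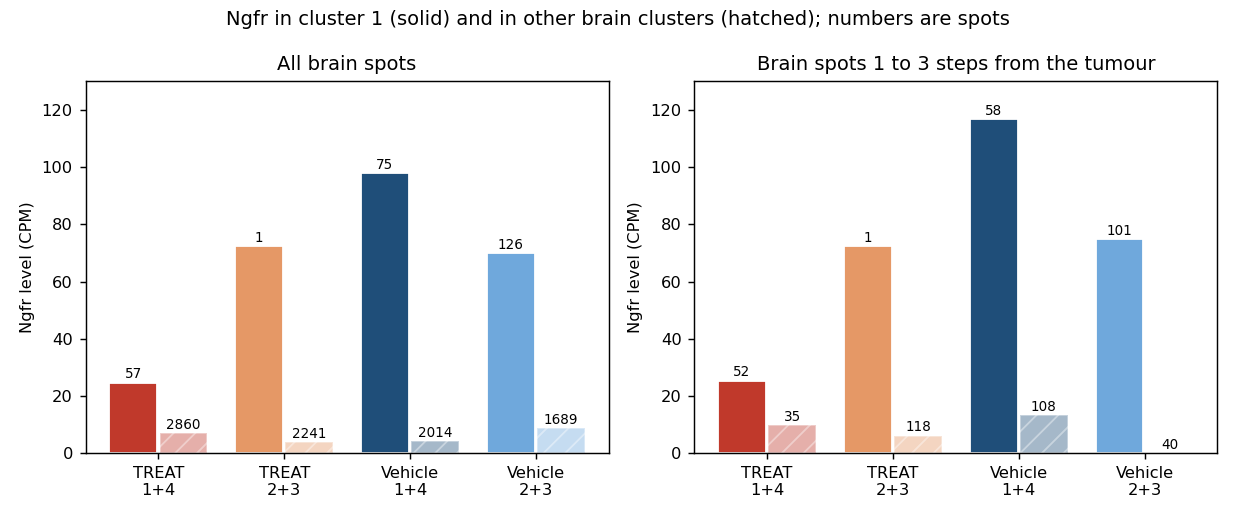
Ngfr in CPM in cluster 1 (solid) and in the other brain clusters together (hatched) of each capture area, TREAT left of Vehicle, with the number of spots above each bar. The left panel has all brain spots and the right panel those at 1 to 3 steps from tumour. In the left panel cluster 1 stands at 24.7 CPM in TREAT 1+4, against 97.8 and 70.0 CPM in Vehicle. The other clusters lie between 4.00 and 8.77 CPM there. In the right panel cluster 1 stands at 25.4 CPM in TREAT 1+4, against 116.7 and 74.7 CPM in Vehicle. The other clusters lie between 0 and 13.3 CPM there. The cluster 1 bar of TREAT 2+3 rests on 1 spot in both.

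The ring of brain at 1 to 3 steps from tumour was set against brain at 6 or more steps. Ngfr had 20.6 and 6.83 CPM in the ring of TREAT areas and 72.3 and 58.8 CPM in the ring of Vehicle areas, against 7.15 and 4.02 CPM far away in TREAT and 3.81 and 8.85 CPM far away in Vehicle. The ring was higher in 4 of 4 areas, by 2.25 ± 0.52 on the log2 scale (edgeR adjusted p = 0.015). Of the 6 genes, 1 was higher and 4 lower in the ring, where edgeR called 38.8% of genes (19.7% higher and 19.1% lower). Without Vehicle 1+4 or Vehicle 2+3 all 5 calls were lost (Ngfr 1.60, adjusted p = 0.056, and 2.11, adjusted p = 0.090), and without TREAT 1+4 those of Bdnf, Ntrk2, Ntrk3 and Sort1 (adjusted p from 0.065 to 0.122).

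In 3 of 4 areas the Ngfr UMIs of the ring came mostly from cluster 1. Of the Ngfr UMIs in the ring, cluster 1 held 85.0% and 10.0% in TREAT areas, against 92.1% and 100% in Vehicle areas, the 10.0% coming from 1 spot. With brain limited to the named regions, which leaves out cluster 1 and the other unnamed and meningeal clusters, the ring differed from far brain by −0.15 (edgeR adjusted p = 0.951), and none of the other 5 genes was called either. Beyond 1 step, Ngfr was lower in 3 of 4 areas, and in TREAT 2+3 it was low at both distances: at 1 step outside, with reactive glia included, it had 29.1 and 3.42 CPM in TREAT areas, against 98.3 and 66.9 CPM in Vehicle areas, and at 2 steps 8.07 and 3.16 CPM in TREAT, against 12.2 and 18.8 CPM in Vehicle.

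The neural receptors showed the opposite profile. Ntrk2 had 226.9 and 380.8 CPM at 1 step outside in TREAT, against 163.9 and 159.5 CPM in Vehicle, and 610.3 and 501.1 CPM at 2 steps in TREAT, against 482.6 and 347.1 CPM in Vehicle. Sort1 had 46.4 and 94.98 CPM at 1 step outside in TREAT, against 49.7 and 57.5 CPM in Vehicle, and 190.4 and 209.7 CPM at 6 to 10 steps in TREAT, against 174.8 and 180.3 CPM in Vehicle. In the ring, Ntrk2 fell by 0.83, Ntrk3 by 1.18, Bdnf by 0.83 and Sort1 fell by 1.297 on the log2 scale (edgeR adjusted p from 0.014 to 0.035), and Ntf3 differed by 0.06 (adjusted p = 0.923). In ring spots outside cluster 1, Ntrk2 had 642.2 and 463.2 CPM in TREAT and 438.0 and 451.7 CPM in Vehicle. In far spots outside cluster 1 it had 506.6 and 477.6 CPM in TREAT and 474.2 and 414.1 CPM in Vehicle. Bdnf and Ntrk3 overlapped between these spots too. Sort1 stayed lower in the ring in every area, at 88.9 to 177.1 CPM against 193.0 to 197.2 CPM. The part of cluster 1 was not tested.

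**Figure D3:**
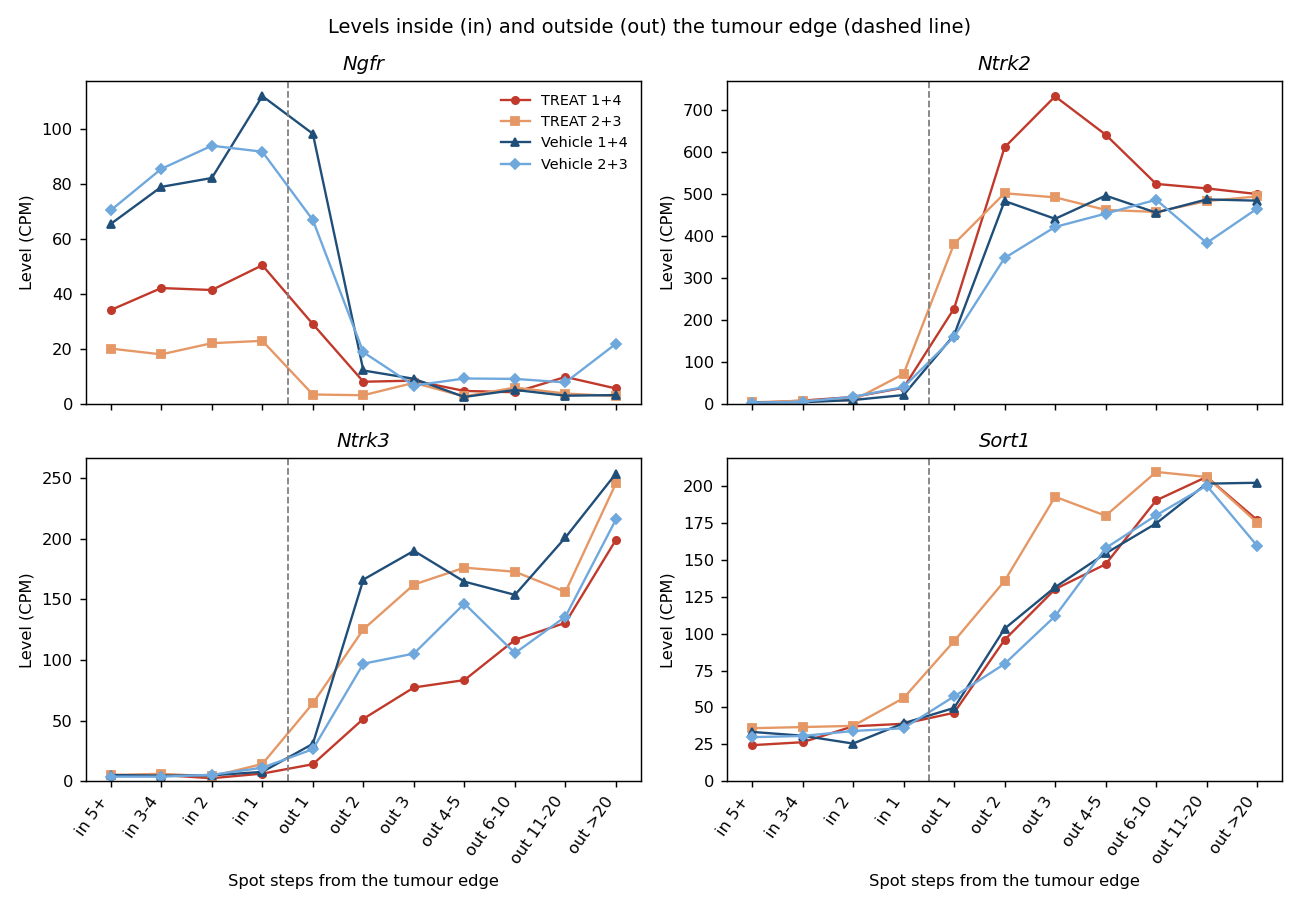
Level in CPM of Ngfr, Ntrk2, Ntrk3 and Sort1 by distance from the tumour edge, in steps between neighbouring spots, inside the tumour and outside it, with 1 line per capture area. In 3 of 4 areas Ngfr is high inside and at 1 step outside and lower from 2 steps on, while in TREAT 2+3 it is at 3.42 CPM at 1 step outside; Ntrk2, Ntrk3 and Sort1 are low inside and rise over the steps outside.

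By brain region, Bdnf, Ntf3, Ntrk3 and Sort1 had their highest means in hippocampus. The order of the other named regions differed between these genes. Regions are clusters of the same spots, formed without the 6 genes but with genes that vary along with them, so the tests below describe these clusters' spots. Each of 7 regions was set against all other brain in the same areas, which gives 42 tests, of which edgeR called 23, with 8 higher and 15 lower. Of all genes, edgeR called from 13.8% in meninges (5.27% higher and 8.53% lower) to 54.6% in white matter (25% higher and 29.6% lower). The count of 23 was not tested against these shares. Regions with fewer than 20 spots in an area left that area out. Hypothalamus and meninges therefore rest on 3 areas, and striatum, with TREAT spots alone above that minimum, was not tested.

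Among the named regions, Bdnf was highest in hippocampus. It had 77.6 and 102.7 CPM there in TREAT areas and 68.8 and 77.9 CPM in Vehicle areas, a log2 difference to other brain of 1.82 ± 0.18 (edgeR adjusted p = 0.00039), where 19% of genes were called (9.47% higher and 9.54% lower). No other named region reached the lowest of these values. The unnamed cluster 9, led by Lypd1 and Lmo3, had 80.7 and 52.1 CPM in TREAT areas and 52.6 CPM in Vehicle 1+4, above hippocampus in TREAT 1+4 and below it in the other two. Meninges, cortex and hypothalamus followed, with means of 37.1, 33.9 and 24.1 CPM, and each overlapped the next. In cortex, Bdnf had 42.5 and 43.0 CPM in TREAT areas, against 26.2 and 24.0 CPM in Vehicle areas. That difference between groups was not tested. Bdnf fell in white matter by 1.85, in choroid plexus and ependyma by 1.34 and in thalamus by 0.99 on the log2 scale, where 54.6%, 34.7% and 39% of genes were called. Those lower made up 29.6% in white matter, 19.8% in choroid plexus and ependyma and 19.7% in thalamus, and those higher 25%, 14.9% and 19.3%. The choroid plexus call was lost without TREAT 2+3 (−0.81, adjusted p = 0.130).

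Ntf3 had its highest mean over areas in hippocampus too, with 30.02 and 22.3 CPM in TREAT areas and 14.5 and 8.78 CPM in Vehicle areas. The log2 difference to other brain was 2.65 ± 0.28 (edgeR adjusted p = 0.00055). Most of it lay in cluster 11, the part of hippocampus rich in C1ql2, Dsp and Prox1, a marker of dentate granule cells. There Ntf3 had 117.3 and 64.2 CPM in TREAT areas (37 and 53 spots), against 41.8 and 39.4 CPM in Vehicle areas (120 and 26 spots). Meninges came next and overlapped hippocampus, with 7.31 and 12.4 CPM in TREAT areas and 23.2 CPM in Vehicle 1+4, where 3 UMIs were counted. That Vehicle value was above both hippocampus values of the Vehicle areas. The means of the other named brain regions ran from 1.61 CPM in thalamus to 4.55 CPM in striatum. It fell in cortex by 1.67, in thalamus by 1.53, in white matter by 1.18 and in hypothalamus by 1.10 on the log2 scale, where edgeR called 29% of genes in cortex (14.2% higher and 14.8% lower) and 20.7% in hypothalamus (8.43% higher and 12.3% lower). The hypothalamus call was lost without Vehicle 2+3 (adjusted p = 0.151) or TREAT 1+4 (adjusted p = 0.778), and the white matter call without either TREAT area (adjusted p = 0.152 and 0.102). In cortex a finer clustering turned the value to 0.26 (adjusted p = 0.385).

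Ntrk2 was the most even of the 6 genes across the brain. Its regional means ran from 448.1 CPM in cortex to 825.5 CPM in choroid plexus and ependyma, and all regions from meninges down to cortex overlapped their neighbours in the order. Choroid plexus and ependyma, with 920.6 and 839.2 CPM in TREAT areas and 793.6 and 748.7 CPM in Vehicle areas, stood above every other named region. The log2 difference to other brain was 0.69 ± 0.16 (edgeR adjusted p = 0.00080), and it was the only regional call of Ntrk2.

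Ntrk3 varied more. It had 267.8 and 285.5 CPM in hippocampus of TREAT areas and 304.1 and 243.9 CPM in hippocampus of Vehicle areas, 1.20 ± 0.17 above other brain on the log2 scale (edgeR adjusted p = 0.0022). Thalamus had the lowest mean of the named brain regions, with 40.3 and 37.95 CPM in TREAT areas, against 59.5 and 51.5 CPM in Vehicle areas. It was 1.77 ± 0.12 below other brain on the log2 scale (edgeR adjusted p = 6.5e-07). Its areas overlapped those of choroid plexus and ependyma (39.7 to 114.9 CPM) and of reactive glia (49.2 to 107.4 CPM). Ntrk3 rose in cortex by 0.41 and in hypothalamus by 0.60, and fell in white matter by 1.23 and in choroid plexus and ependyma by 1.32 on the log2 scale, all called. The hypothalamus call was lost without Vehicle 2+3 (adjusted p = 0.081) or TREAT 1+4 (adjusted p = 0.062).

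Sort1 had its highest level in hippocampus, with 254.7 and 283.0 CPM in TREAT areas and 245.3 and 279.8 CPM in Vehicle areas. It was 0.81 ± 0.14 above other brain on the log2 scale (edgeR adjusted p = 0.0053), and no other named region overlapped it. Cortex followed at a mean of 206.5 CPM, 0.33 above other brain. Sort1 fell in hypothalamus by 0.78 and in choroid plexus and ependyma by 0.58. The calls in cortex and hypothalamus were lost without TREAT 1+4 (0.25, adjusted p = 0.089, and −0.65, adjusted p = 0.065), and that in choroid plexus and ependyma without TREAT 1+4 (−0.52, adjusted p = 0.054) or TREAT 2+3 (−0.44, adjusted p = 0.145).

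The order of the named brain regions by Ngfr was not resolved, since every neighbour in the order overlapped. Means ran from 2.47 CPM in hippocampus to 11.9 CPM in white matter. Against other brain it fell by 2.02 in hippocampus, by 1.37 in thalamus and by 1.13 in cortex on the log2 scale (edgeR adjusted p at most 0.0021). Other brain includes cluster 1, which held 65.0% and 51.4% of the brain Ngfr UMIs in Vehicle 1+4 and 2+3. Without cluster 1, brain had 4.18 and 8.77 CPM in these Vehicle areas, and 6.98 and 4.00 CPM in TREAT areas. The means of cortex, thalamus and hippocampus were 5.84, 6.20 and 3.22 CPM in Vehicle, and 2.73, 1.64 and 1.71 CPM in TREAT. The part of cluster 1 in these falls was not tested. White matter differed by 0.69, which did not pass the test. Without either Vehicle area it did, at 1.07 and 1.08 (adjusted p = 0.015 and 0.038), while without TREAT 2+3 the value was 0.0926 (adjusted p = 0.835). Its levels there were 14.3 and 23.8 CPM in TREAT areas, against 1.67 and 7.80 CPM in Vehicle areas. The Vehicle values rest on 1 and 2 Ngfr UMIs, in 133 and 58 spots. In TREAT 2+3, white matter was above the tumour of the same area, which had 20.2 CPM, and this small difference was not tested. In meninges, where none of the 6 genes was called, edgeR called 13.8% of genes (5.27% higher and 8.53% lower) and 4292 had an unadjusted p under 0.05.

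Outside the named regions, 1 further set of spots stood high in Ngfr, chosen here after its values were seen. In the unnamed cluster 2, led by Syt2 and Cbln4, Ngfr had 102.3 and 17.0 CPM in TREAT areas (48 and 89 spots), against 7.17 and 14.2 CPM in Vehicle areas (382 and 185 spots). The 7 marker genes of basal forebrain cholinergic neurons, the cells for which p75 is best known in healthy brain, summed there to 214.9 and 65.9 CPM in TREAT areas, against 11.8 and 24.0 CPM in Vehicle areas. Of these, Chat, the enzyme that makes acetylcholine, had 34.7 CPM in TREAT 1+4 but 5.99 CPM in TREAT 2+3. Lhx8, a transcription factor of these neurons, had 93.6 CPM in TREAT 1+4 and 11.0 CPM in TREAT 2+3. In TREAT 1+4, Slc5a7, also on the list, had 3.47 CPM from 2 UMIs, and Zic4 was at 0. Their part in the Ngfr level was not tested.

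A further ligand gene, Ntf5, which encodes neurotrophin-4, was measured at low levels. It had 3.99, 4.07, 4.53 and 4.44 CPM in tumour of TREAT 1+4, TREAT 2+3, Vehicle 1+4 and Vehicle 2+3, against 1.82, 1.76, 1.55 and 1.16 CPM in their brain. The areas of tumour and brain did not overlap, and the log2 difference was 1.23 ± 0.23 (SE, edgeR adjusted p = 0.0016). Between TREAT and Vehicle tumour it differed by −0.57 ± 0.29 and did not pass the test (edgeR adjusted p = 0.120).

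The wider pathway was read through lists of 102 genes. In tumour against brain, 23 of 101 measured pathway genes were higher and 61 lower, against 30.1% and 34% of all genes. Of 19 co-receptors and adaptors of p75, 11 were higher and 8 lower. Nradd, a p75 homologue with a death domain, had a mean of 53.5 CPM in tumour against 9.05 CPM in brain. Traf4, a p75-binding adaptor, had 90.0 CPM against 16.2 CPM, and both were called. Lingo1, a co-receptor that joins p75 and the Nogo receptor, went the other way, at 3.67 CPM in tumour against 239.0 CPM in brain. All 4 further sortilin family genes were lower in tumour, with a median log2 difference of −3.78.

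Of the adaptors and effectors of Trk receptors, 6 of 40 were higher and 26 lower in tumour than in brain, against 30.1% and 34% of all genes. Shc1, the docking protein of many receptor kinases, had 126.4 CPM in tumour against 30.9 CPM in brain, and Camk2a, a neuronal kinase, 17.0 CPM against 1160 CPM. Of 22 genes that BDNF induces in neurons, 3 were higher and 15 lower, against the same shares of all genes. Dusp6, a phosphatase of MAP kinases, had 548.3 CPM in tumour against 118.9 CPM in brain, and Vgf, a neuropeptide precursor, 3.31 CPM against 102.6 CPM.

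Between TREAT and Vehicle tumour, 5 of 99 measured pathway genes were higher and 35 lower, against 14.2% and 19.6% of all genes. Their median log2 difference was −0.24, against 0.090 for all genes. Crk and Crkl, adaptors downstream of Trk receptors, differed by −1.43 and −1.06, and the early response genes Nr4a1 and Junb by −1.58 and −1.23. Among the p75 co-receptors and adaptors, 9 of 19 were lower and none higher. Sorcs2, a sortilin family receptor for proneurotrophins, was higher, at 11.3 CPM in TREAT against 4.54 CPM in Vehicle (0.86 ± 0.26, edgeR adjusted p = 0.014), and Shc2 and Slitrk5 were higher by 1.07 and 0.73 on the log2 scale. Under library totals, 8268 of all genes were higher and 1472 lower in TREAT tumour, against 2794 and 3868 with TMM, so such counts of higher and lower genes rest on the scaling.

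In brain outside tumour, 2 of 101 pathway genes were higher in TREAT and 2 lower, against 0.307% and 2.89% of all genes. The neuropeptide genes Tac1 and Cort were higher by 1.28 and 2.09 on the log2 scale. Striatum, which expresses Tac1 among its leading genes, had 205 and 154 spots in TREAT areas, against 0 and 4 in Vehicle areas. Traf4 fell by 0.90 and the kinase gene Irak1 by 0.63. These brain spots include cluster 1, and with brain limited to the named regions 0 of 18493 genes were called. The part of striatum and of cluster 1 in these values was not tested. In the ring against far brain, 16 of 99 pathway genes were higher and 37 lower, against 19.7% and 19.1% of all genes. All genes called there numbered 6306, but 1724 without Vehicle 1+4 and 1754 without Vehicle 2+3.

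Across 50 sums of spots (14 regions by area), the genes nearest to each of the 6 by Pearson correlation were found among 11404 genes. These values share libraries and depth and are a description. Ngfr was nearest to Pigt (0.817), Tfap2a (0.813), a transcription factor of the neural crest, and Zfp516 (0.804). Bdnf was nearest to Prdm8 (0.883), and Neurod2 (0.804), a transcription factor of excitatory neurons, was the fifth. Ntf3 had no near match above Cdh9 (0.750). Ntrk2 was nearest to Mt3 (0.981), Scg3 (0.978) and Mlc1 (0.966), Ntrk3 to Ryr2 (0.972) and Sort1 to Fam171b (0.943). Among the 6 genes themselves, Ngfr correlated negatively with all others (from −0.747 with Sort1 to −0.480 with Ntf3). Ntrk2 and Sort1 were the closest pair (0.802), though their highest brain means lay in different regions, choroid plexus and ependyma and hippocampus. The 50 sums include those of tumour, where Ngfr was higher and the others were lower than in brain. The part of tumour in these correlations was not tested.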

How the data were processed

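Deposited values are raw UMI counts per gene and spot, made by the authors with Space Ranger 2.1.1 on mm10, and R 4.4.1 and Seurat are also named, per the submitters' processing notes. The matrices list 32589 features; 304 deprecated ones were left out, and 20458 of the rest had counts. Which isoforms the probes reach, and how many probes a gene has, is not stated in the sources, so levels are not ranked between genes. The 4 areas share all 4980 barcodes, which mark grid positions, not cells.

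Tissue spots with at least 500 UMIs were scaled to 10000 counts, log-transformed with a pseudocount of 1 and clustered with scanpy 1.11.5 (2000 variable genes without the 6 genes and their pathway, 30 components, 15 neighbours, Leiden resolution 0.6). A cluster was named from at least 3 markers among its 50 leading genes, if its top 10 held more markers of that name than of any other. Brain outside tumour leaves out the reactive glia cluster. Doublets were not called, as spots are regions. Levels are UMIs of a gene per 1000000 UMIs of the same spots (CPM). Counts summed per area and region were tested with edgeR 4.0.16 (quasi-likelihood, TMM, filterByExpr, Benjamini-Hochberg over all genes tested), with the area as a block where 2 regions of the same areas were compared. DESeq2 1.42.0 was an alternative. The scripts were tested on simulated data. Intervals are at 95% and cover counting error only.

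The 6 genes, the pathway and marker lists and the tests were chosen with earlier results of these data known. All 6 genes are named in each comparison. Some other genes are not reported here. Pathway genes are named by the smallest p, up to 6 in each direction, among those called whose areas all lie on 1 side, and the 5 nearest genes by correlation were found for each of the 6. Alternatives covered test, scaling, filters, clustering, ring width, brain definition, replicate block and leaving out each area.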

Additional observations from a re-analysis of the deposited data

Results flagged for a closer look

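Spots off the tissue, which no comparison uses, carried RNA of the Trk receptors and sortilin at levels that differed between the groups. Ntrk2 had 509.2 and 385.4 CPM off tissue in TREAT areas, against 320.2 and 235.9 CPM in Vehicle areas, a ratio of means of 1.61. Ntrk3 had 89.1 and 117.4 CPM in TREAT, against 78.5 and 88.9 CPM in Vehicle, a ratio of 1.23, and Sort1 had 114.8 and 127.1 CPM in TREAT, against 103.3 and 85.3 CPM in Vehicle, a ratio of 1.28. For each of the 3 genes both TREAT areas were above both Vehicle areas, with 2 areas per group and no test. Ngfr went the other way off tissue, with 9.91 and 13.2 CPM in TREAT, against 52.7 and 48.3 CPM in Vehicle.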

How the results depend on the processing

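Of 736 values of single genes or shares under the alternatives, 594 kept their direction and their side of the threshold or moved by less than the spread between areas. Ngfr was higher in tumour than in brain and lower in TREAT tumour under all alternatives run. Counts of called genes moved more. In whole tissue (1373 called) they were 3974 with DESeq2, 3605 with library totals (2920 higher and 685 lower, against 224 and 1149 with TMM), 9100 with the label number as a replicate block, and 7 to 4770 with 1 area left out (7 without Vehicle 1+4, 14 without Vehicle 2+3 and 310 without TREAT 1+4). In tumour (6662) they were 4359 with DESeq2 and 2773 to 6913 with 1 area left out (2773 without Vehicle 1+4 and 4202 without TREAT 2+3). In brain (626) they were 1240 with DESeq2, 67 with library totals, 347 with spots of at least 1000 UMIs, 2409 at Leiden resolution 1.0, 1715 with the pathway in the clustering, and 48 to 708 with 1 area left out (48 without Vehicle 2+3, 207 without TREAT 1+4 and 145 without TREAT 2+3). The brain count was 0 with edgeR and a replicate block (3644 at an unadjusted p under 0.05) and 0 in named regions alone (3536). For the difference between the 2 effects (897) they were 545, 1706 and 1547 under the UMI minimum, Leiden resolution 1.0 and the pathway in the clustering, 2 with named regions, and 411 to 794 with 1 area left out. For the ring (6306) they were 10790 with the UMI minimum, 10170 at Leiden resolution 1.0, 1032 with named regions, and 1724 to 8969 with 1 area left out (1724 without Vehicle 1+4, 1754 without Vehicle 2+3 and 2133 without TREAT 1+4). In regions against other brain, counts moved by over 1.5 times with 1 area left out. Without TREAT 1+4 they were 2961 in cortex (5135), 1736 in hippocampus (2943), 1203 in hypothalamus (3559), 4844 in white matter (10593), 3684 in choroid plexus and ependyma (5841) and 692 in meninges (2355). They were 1839 in hippocampus without Vehicle 1+4, 1830 in hypothalamus without Vehicle 2+3 and 1310 in meninges without TREAT 2+3. DESeq2 called 1496 in hypothalamus and 951 in meninges, and Leiden resolution 1.0 gave 569 in meninges.

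Directions turned mostly near 0, and the cause was not tested. With DESeq2 the log2 values were 0.0137 for Ntrk3 in brain between groups, and 0.21 for Ntrk2 and 0.0411 for Sort1 in white matter. With library totals they were 0.20 for Ntrk3 and 0.16 for Sort1 in tumour, 0.11, 0.14 and 0.11 for Bdnf, Ntrk3 and Sort1 in brain, 0.0407 for Sort1 in the difference of effects, −0.0242 for Ntrk2 in cortex and −0.0159 for Sort1 in thalamus, and 0.27 and 0.10 for Ntrk2 and Sort1 in white matter. With at least 1000 UMIs they were −0.17 for Ntrk2 in tumour, 0.0678, 0.10 and 0.0854 for Bdnf, Ntrk3 and Sort1 in brain, −0.28 for Ntrk2 in the difference of effects, −0.67 for Ntf3 in the ring, and 0.55 and 0.0619 for Ntrk2 and Sort1 in white matter. At Leiden resolution 1.0 they were 0.24, 0.25 and 0.22 for Bdnf, Ntrk3 and Sort1 in brain, 0.32 for Ngfr and −0.17 for Ntrk2 in the difference of effects, −1.34 for Ntf3 in the ring, 0.26 for Ntf3 in cortex and 0.11 for Ntrk2 in white matter. With the pathway in the clustering they were 0.10, 0.11 and 0.0884 for Bdnf, Ntrk3 and Sort1 in brain, 0.0266 for Ngfr in the difference of effects, −0.34 for Ntf3 in the ring and 0.23 for Ntrk2 in white matter. With named regions alone, an alternative chosen after seeing the data, they were −0.24 for Ntf3 in brain, 0.14 and 0.0511 for Ntrk3 and Sort1 in the difference of effects, and −0.15 and 0.36 for Ngfr and Bdnf in the ring. A ring of 1 to 2 steps gave −0.46 for Ntf3.

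Thinned to 2000 UMIs, the share of tumour spots with a UMI, TREAT minus Vehicle, was 0.43 points for Bdnf and 0.36 for Ntrk3, and without thinning it was 6.72 for Bdnf, 7.63 for Ntrk3 and 19.2 for Sort1, where the deeper TREAT spots count. With 1 area left out, values ran from −0.21 to 1.26 for Ntf3 in tumour, from −0.20 to 0.19, −0.0253 to 0.24, −0.24 to 0.32 and −0.0672 to 0.0648 for Bdnf, Ntrk2, Ntrk3 and Sort1 in brain, from −0.32 to 1.06 for Ntf3 in the difference of effects, from −0.21 to 0.42 for Ntf3 in the ring, from −0.0783 to 0.36 for Bdnf in cortex and from −0.0920 to 0.28 for Ntrk2 in white matter.

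The numbers 1+4 and 2+3 are shared by the groups, but nothing says that they pair the areas: the deviations of same-numbered areas correlated at 0.49 in whole tissue, −0.14 in tumour and −0.34 in brain. The replicate block gave 0.00909 for Ntrk3 in brain and changed no call of the 5 other genes. A crossed replicate block called 5983 genes in tumour and 2796 in brain, with 0.0102 for Ntrk3 in brain. The minimum of 1000 UMIs and the pathway in the clustering could not be fitted for choroid plexus and meninges. Ntf3, with 668 UMIs in all areas, has the fewest counts of the 6 genes.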
